A study of Mus musculus with 6 samples.

Results

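Neurotrophic factors and their receptors were followed as a set of 9 genes chosen by symbol and matched to the entries of the deposited gene expression table, which holds 34433 symbols in 41945 entries. All 9 genes were found, each in an entry of its own. They are the neurotrophin receptors Ntrk2, Ntrk3 and Ngfr, the glial cell line-derived neurotrophic factor (GDNF) receptor genes Ret, Gfra1 and Gfra2, the ciliary neurotrophic factor (CNTF) receptor gene Cntfr, and the ligand genes Bdnf and Gdnf. The data come from motor neurons (MNs) differentiated from mouse embryonic stem cells (mESCs) on the FVB/N background. The Hb9 line is the control, labelled as wild type for Smn and described by the study as SMN2+/+;mSmn+/+, and the A2 line is the model of severe spinal muscular atrophy (SMA), SMN2+/+;mSmn-/-. Sorted MNs of the lines are called Hb9 cells and A2 cells. By the study's methods both lines carry the human SMN2 transgene and an eGFP reporter under the Hb9 (Mnx1) promoter. Embryoid bodies of both lines received 1 µM retinoic acid and 1 µM Smoothened agonist for 5 days, and GFP-positive cells were then sorted, with 3 samples per genotype. The sorted cells went to RNA isolation without the cocktail of BDNF, GDNF, CNTF and neurotrophin-3 that the study gave to plated cells. Each genotype is represented by 1 mESC line, so genotype and line cannot be told apart.

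The table gives 1 value per gene and genotype as FPKM, a fragment count scaled by transcript length and library size, which the authors formed from the 3 samples. The values of single samples, their spread and the reads behind each value are unknown. No difference below therefore carries a standard error or a test across samples, and each is a comparison of 2 pooled values. Ratios are given as log2 of the A2 value over the Hb9 value, with no pseudocount. A gene is called lower or higher where it differs by at least 2-fold and has at least 1 FPKM in either genotype. In bulk RNA, fewer cells of a type and less RNA per cell cannot be told apart.

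Neurotrophic factors are secreted proteins that support the survival and growth of neurons. Neurotrophins bind Trk receptor tyrosine kinases and the shared receptor p75, which Ngfr encodes. GDNF binds a membrane-anchored GFRα protein that then engages the kinase RET, and CNTF binds CNTFRα, which signals through gp130 and the LIF receptor. Embryonic spinal MNs are known to carry all of these receptors and to respond to BDNF, GDNF and CNTF, which come largely from muscle, Schwann cells and other target or neighbouring cells.

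The transcript of the targeted gene, Smn1, was at 137 FPKM in Hb9 cells and 5.26 FPKM in A2 cells, 25.9-fold lower. Mnx1, whose promoter drives the sorted reporter, was at 41.2 and 44.2 FPKM. Of the 14926 genes with a symbol that passed the filter, 22.4% were called lower and 6.83% higher in A2 cells, and their median log2 ratio was -0.29. When ratios were centred on that median, 16.5% were called lower and 10.4% higher, so the higher genes made up 38.8% rather than 23.4% of the called ones.

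The receptor genes of the set were lower in A2 cells, while the ligand genes were at levels where a difference may not have been detectable. All 7 receptor genes were lower in A2 cells by at least 2-fold, beside 22.4% of all genes, with log2 ratios from -4.27 for Gfra1 to -1.56 for Gfra2 and a median of -2.56. Their FPKM values summed to 269 in Hb9 cells and 37.9 in A2 cells. Both ligand genes had low FPKM, at almost the same value in the 2 genotypes. Of the 9 genes, 8 passed the filter of 1 FPKM, Gdnf being the exception, and their median log2 ratio was -2.44. Gfra2 and Ntrk3 passed only through their Hb9 values. None of the 9 genes was higher by 2-fold, beside 6.83% of all genes.

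**Figure D1:**
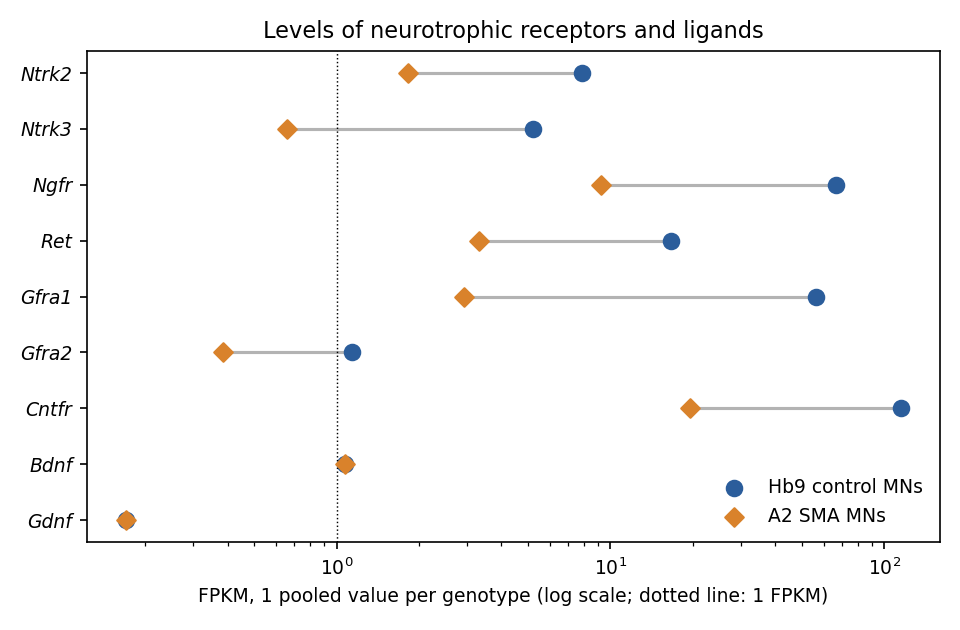
FPKM of the 9 genes on a log axis, with circles for Hb9 control MNs and diamonds for A2 SMA MNs, each marking 1 pooled value without an error bar. The 7 receptor genes lie further left in A2 cells, while the symbols for Bdnf and Gdnf coincide.

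Gfra1, which encodes the receptor that binds GDNF itself, had the lowest ratio. In NCBI m37 its entry spans chromosome 19 from 58278629 to 58530425. It was at 56.4 FPKM in Hb9 cells and 2.92 FPKM in A2 cells, 19.3-fold lower. Only 198 of the 14926 genes had a lower log2 ratio than its -4.27. By level it stood above 80.7% of these genes in Hb9 cells and above 22.9% of them in A2 cells. An entry for Gm16277 overlaps that of Gfra1, and reads of overlapping genes may have been divided between them.

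Ret encodes the tyrosine kinase through which GDNF and its relatives signal (chromosome 6 from 118101766 to 118147762). Its level was 16.7 FPKM in Hb9 cells and 3.31 FPKM in A2 cells, a log2 ratio of -2.33. The kinase was thus 5.03-fold lower, and the difference in its co-receptor Gfra1 was larger. In Hb9 cells Gfra1 had 3.39 times the FPKM of Ret, and in A2 cells it had 0.88 times the FPKM of Ret. FPKM is scaled by transcript length, which allows such a comparison of levels between genes, but no error can be attached to these quotients. Gfra2, which encodes the receptor preferred by neurturin (chromosome 14 from 71289927 to 71379645), was scarce in both genotypes. It was at 1.13 FPKM in Hb9 cells and 0.386 FPKM in A2 cells, a log2 ratio of -1.56. With a pseudocount of 1 FPKM the log2 ratio was -0.62, short of 2-fold, which left 6 receptor genes called lower. In Hb9 cells only 4.96% of the genes were below its level. Gfra1 exceeded Gfra2 49.7 times in Hb9 cells and 7.56 times in A2 cells.

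Among the neurotrophin receptors, Ngfr was the most abundant. This gene for p75, which binds all neurotrophins and belongs to the tumour necrosis factor receptor family, lies on chromosome 11 from 95430132 to 95449049. It was at 66.3 FPKM in Hb9 cells and 9.24 FPKM in A2 cells, 7.18-fold lower, with a log2 ratio of -2.84. Ntrk2 encodes TrkB, the receptor of BDNF and neurotrophin-4 (chromosome 13 from 58907957 to 59235331). It had 7.86 FPKM in Hb9 cells and 1.82 FPKM in A2 cells, a 4.31-fold difference and a log2 ratio of -2.11. Ntrk3 encodes TrkC, the receptor of neurotrophin-3 (chromosome 7 from 85337248 to 85723321). Its 5.23 FPKM in Hb9 cells compared with 0.656 FPKM in A2 cells, so it was 7.96-fold lower and below 1 FPKM in the SMA cells. The log2 ratio of Ntrk3 was -2.99, the second lowest of the set. Ngfr therefore stood above the Trk kinases in both genotypes. It had 8.44 times the FPKM of Ntrk2 in Hb9 cells and 5.07 times in A2 cells, and against Ntrk3 the quotients were 12.7 and 14.1. Ntrk2 and Ntrk3 also produce truncated forms without the kinase domain, which the gene-level values do not separate from the full-length forms.

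Cntfr encodes the subunit that binds CNTF (chromosome 4 from 41604529 to 41644121). It had the highest FPKM of the set in both genotypes, 115 in Hb9 cells and 19.6 in A2 cells. The log2 ratio was -2.56, a 5.88-fold difference. In Hb9 cells 92.6% of the genes were below its level, and in A2 cells 59.8% were.

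Of the ligands in the set, Bdnf lies on chromosome 2 from 109514857 to 109567164 and encodes brain-derived neurotrophic factor. It was at 1.07 FPKM in each genotype, with a log2 ratio of 0.00. Gdnf (chromosome 15 from 7761011 to 7787575) was at 0.17 FPKM in Hb9 cells and 0.171 FPKM in A2 cells, below the filter in both. After centring on the median of all genes the log2 ratios of Bdnf and Gdnf were 0.29 and 0.30. At such levels, and with the reads behind each value unknown, a difference between the genotypes may not have been detectable.

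In Hb9 cells the levels ran in the order Cntfr, Ngfr, Gfra1, Ret, Ntrk2, Ntrk3, Gfra2, Bdnf and Gdnf. In A2 cells Ret came before Gfra1, and Bdnf before Ntrk3 and Gfra2. Without values of single samples, no neighbours in these orders can be said to differ beyond the spread between samples.

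**Figure D2:**
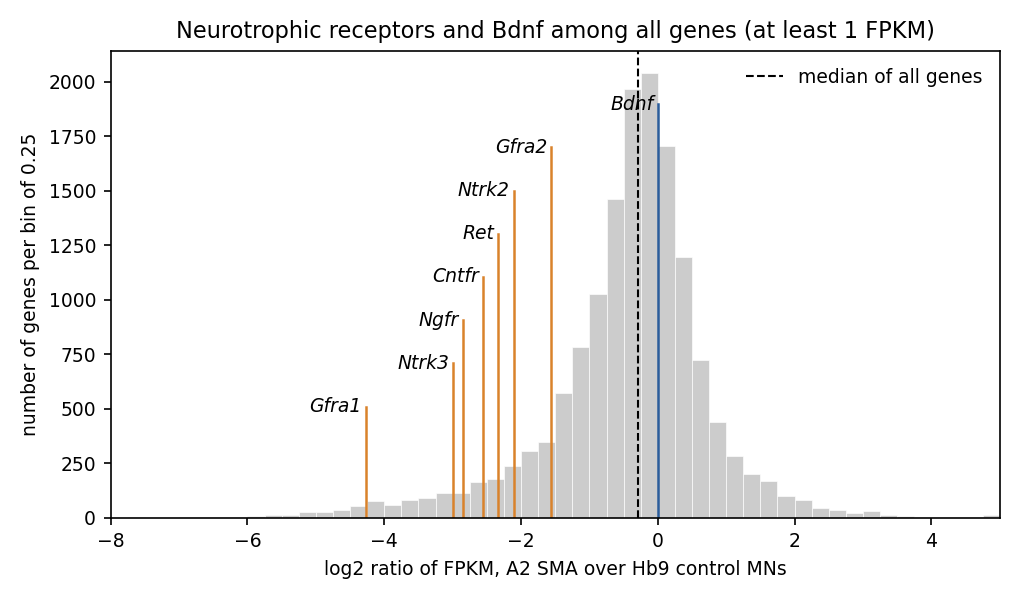
Histogram of the log2 ratio of FPKM (A2 SMA over Hb9 control MNs) for the 14926 genes that passed the filter, with the outermost bins holding all values beyond them. Vertical lines mark 8 genes of the set at heights without meaning, and the dashed line is the median of all genes at -0.29. The 7 receptor genes lie left of -1 and Bdnf lies at 0.00.

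The sequences before the annotated starts of receptor genes are shown because these genes were lower together. RefSeq windows on GRCm38.p6, a later build than that of the expression table, were found for 6 of the 9 genes. Gfra1, Ngfr and Ntrk2 have 1 window each. The 250 bases before the start are given 5′ to 3′ on the strand of the gene, from chr19:58455399-58455648 (minus strand) for Gfra1, chr11:95587699-95587948 (minus strand) for Ngfr and chr13:58806319-58806568 (plus strand) for Ntrk2. Capitals mark matches to the E-box CANNTG, the motif read by basic helix-loop-helix factors, which reads the same on both strands.
Gfra1: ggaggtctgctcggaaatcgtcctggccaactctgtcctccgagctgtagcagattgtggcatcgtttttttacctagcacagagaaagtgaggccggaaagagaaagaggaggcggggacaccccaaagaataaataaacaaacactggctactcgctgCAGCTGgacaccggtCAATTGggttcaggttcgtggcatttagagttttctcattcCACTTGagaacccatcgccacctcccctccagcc
Ngfr: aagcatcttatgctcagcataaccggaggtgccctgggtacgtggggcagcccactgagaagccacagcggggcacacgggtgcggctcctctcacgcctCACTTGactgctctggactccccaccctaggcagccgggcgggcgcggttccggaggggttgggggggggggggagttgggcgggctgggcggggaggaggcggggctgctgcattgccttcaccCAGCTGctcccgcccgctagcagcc
Ntrk2: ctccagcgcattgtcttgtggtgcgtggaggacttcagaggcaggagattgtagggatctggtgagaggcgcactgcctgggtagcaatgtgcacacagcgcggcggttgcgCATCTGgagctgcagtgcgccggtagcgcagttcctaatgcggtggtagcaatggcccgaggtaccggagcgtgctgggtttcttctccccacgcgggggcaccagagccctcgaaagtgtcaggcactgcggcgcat

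The window of Gfra1 holds 3 matches to CANNTG, that of Ngfr 2 and that of Ntrk2 1. The variant CAGCTG, a subset of these matches, begins 90 bases before the start of Gfra1 and 25 bases before that of Ngfr. Over 32851 RefSeq windows of the same length, 66.2% hold the general E-box and 13.0% hold the variant, so the first is common and its presence is no feature of these genes. Of the 6 windows of Cntfr, 3 hold an E-box and 1 holds the variant. Bdnf has 7 windows, 6 of them with an E-box and 1 with the variant, and both windows of Gdnf hold an E-box. TAATTA, a core read by homeodomain factors, was in none of the windows of these 6 genes and in 4.84% of all windows. The motifs were chosen after the expression values were seen, and binding was not measured.

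The other genes of these pathways were read from lists by role. Of 106 genes in these lists outside the set of 9, 91 passed the filter. Of these, 32 (35.2%) were called lower, beside 22.4% of all genes, and 6 (6.59%) were called higher, beside 6.83% of all genes. Their median log2 ratio was -0.57. Some of the genes called lower passed the filter only through their Hb9 values, and some called higher only through their A2 values.

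**Figure D3:**
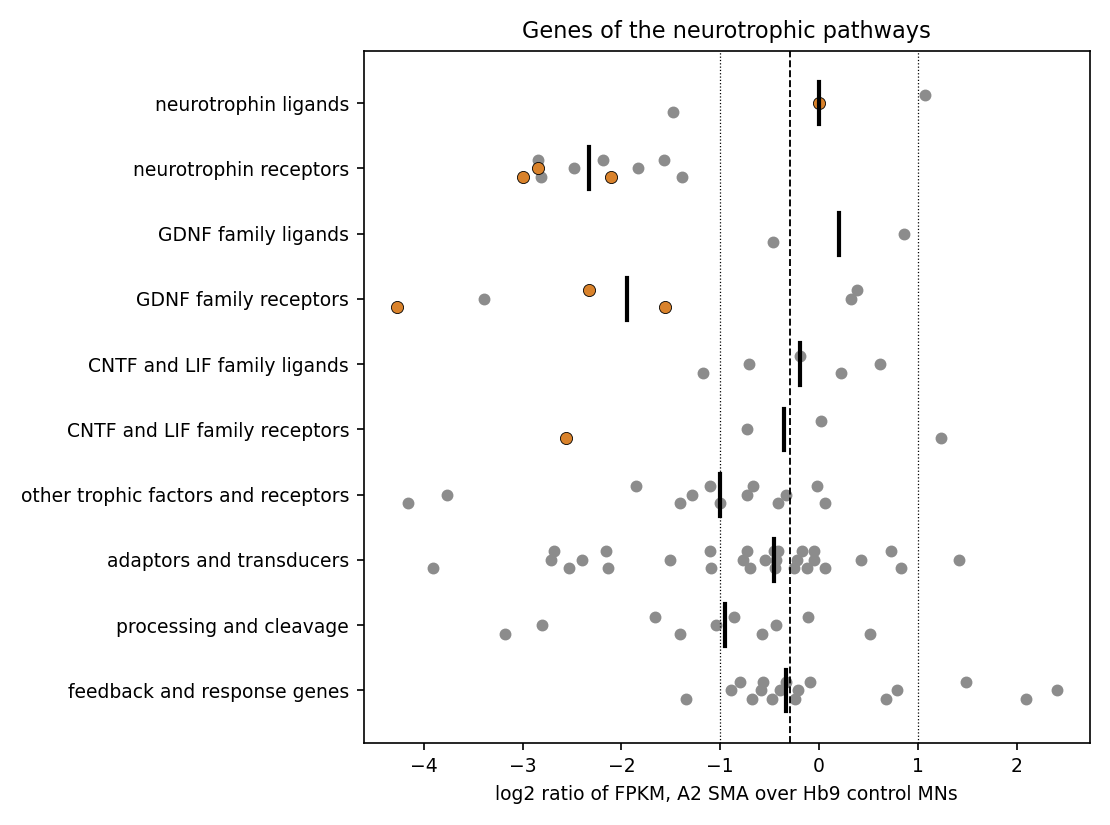
Log2 ratio of FPKM for each gene that passed the filter in 10 pathway lists, with grey points for single genes, outlined orange points for the set of 9, and bars for list medians. The dashed line is the median of all genes at -0.29 and dotted lines mark 2-fold differences. All points of the neurotrophin receptor list lie left of the 2-fold line, while the medians of the ligand lists lie near 0 with single ligand genes beyond the 2-fold lines.

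The list of neurotrophin receptors and co-receptors had 10 genes, all of which passed the filter and were called lower, 1 of them with the status FAIL, beside 22.4% of all genes. Their median log2 ratio was -2.33, and 4 of them, below 1 FPKM in A2 cells, passed only through their Hb9 values. Besides Ntrk2, Ntrk3 and Ngfr, the most abundant was Sort1, which encodes sortilin, the partner of p75 in binding proneurotrophins. Its entry, shared with Gm12525, was at 67.9 FPKM in Hb9 cells and 19.0 FPKM in A2 cells, a log2 ratio of -1.83. The related Sorcs2 was at 17.5 and 6.67 FPKM, and Sorcs1 and Sorcs3 had log2 ratios of -2.84 and -2.81 at less than 2 FPKM.

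Of 7 GDNF family receptor genes, 6 passed the filter and 4 were called lower, beside 22.4% of all genes. The fourth beside Ret, Gfra1 and Gfra2 was Ncam1, an adhesion molecule that can serve as an alternative GDNF receptor, at 75.8 FPKM in Hb9 cells and 7.23 FPKM in A2 cells (log2 ratio -3.39). The receptors of artemin and persephin did not share the direction. Gfra3 was at 1.35 and 1.77 FPKM (log2 ratio 0.39) and Gfra4 had a log2 ratio of 0.32, both short of a 2-fold difference.

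The CNTF receptor works with partners that other cytokines share. Il6st, the gene for gp130, was at 26.4 FPKM in Hb9 cells and 26.8 FPKM in A2 cells, and Lifr was at 13.4 and 8.09 FPKM, for a log2 ratio of -0.73. For these 2 entries the status is FAIL. Cntfr had 4.36 times the FPKM of Il6st in Hb9 cells and 0.73 times in A2 cells, so the specific subunit was lower while the shared one was listed at nearly the same level. Il6ra, the specific receptor subunit for interleukin-6, was at 0.754 and 1.78 FPKM, a log2 ratio of 1.24. Of the 6 genes in this list 4 passed the filter. Il6ra was the 1 called higher and Cntfr the 1 called lower, beside 6.83% and 22.4% of all genes. Il6ra passed the filter only through its A2 value, and a filter of 5 FPKM left no gene of the list called higher.

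Ligand genes were mostly low. In the neurotrophin list Ntf3, for neurotrophin-3, was at 1.70 FPKM in Hb9 cells and 0.613 FPKM in A2 cells (log2 ratio -1.47). Ntf5, the table's symbol for the gene of neurotrophin-4, was at 0.823 and 1.73 FPKM (log2 ratio 1.07). Ntf3 passed the filter only through its Hb9 value and Ntf5 only through its A2 value. In the GDNF family Nrtn, for neurturin, was the most abundant, with 4.01 FPKM in Hb9 cells and 7.29 FPKM in A2 cells (log2 ratio 0.86). Artn was at 2.22 and 1.61 FPKM and Pspn at 0.406 and 0.377 FPKM, and no GDNF family ligand reached a 2-fold difference. Cntf shares an entry with Zfp91, at 40.1 and 24.6 FPKM, so the level of CNTF itself cannot be read from it. Lif was at 3.71 and 4.32 FPKM and Ctf1, for cardiotrophin-1, at 3.25 and 2.85 FPKM in an entry that overlaps that of Ctf2. Clcf1, for a further CNTF receptor ligand, was the only gene of its list called lower, at 1.14 and 0.506 FPKM. It passed the filter only through its Hb9 value, and centring on the median gene (log2 ratio -0.89) or a filter of 5 FPKM left no gene of the list called lower.

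Among other trophic factors for MNs and their receptors, 13 of 15 genes passed the filter, 6 were called lower and none higher, beside 22.4% and 6.83% of all genes. The median log2 ratio was -0.998, that of Vegfa. Mdk, the gene for the growth factor midkine, was at 629 FPKM in Hb9 cells and 395 FPKM in A2 cells, with the status FAIL and an entry that overlaps that of Chrm4. Igf2 was at 487 and 199 FPKM (log2 ratio -1.29) and Vegfa at 228 and 114 FPKM, just short of 2-fold. The receptors for midkine and pleiotrophin had the lowest ratios. Alk was at 2.87 and 0.161 FPKM (log2 ratio -4.16), and Ptprz1 at 17.5 and 1.29 FPKM (-3.77). Alk and Kdr (1.36 and 0.513 FPKM, named after its values were seen) passed the filter only through their Hb9 values. A filter of 5 FPKM left 4 genes of the list called lower.

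Of 29 adaptors and signal transducers that passed the filter, 10 were called lower and 1 higher, beside 22.4% and 6.83% of all genes. Their median log2 ratio was -0.46, beside -0.29 for all genes. Shc3, a neuronal Trk adaptor, was at 2.25 FPKM in Hb9 cells and 0.15 FPKM in A2 cells (log2 ratio -3.91). Shc3 and Magi2 (1.72 and 0.386 FPKM, named after its values were seen) passed the filter only through their Hb9 values. A filter of 5 FPKM left 8 genes of the list called lower. Ndn, for the p75-binding protein necdin, was at 183 and 27.9 FPKM (log2 ratio -2.71), in an entry 51.5 times as long as the RefSeq gene that overlaps 5 others, among them Magel2 and Mkrn3. The p75-associated Ngfrap1 was at 423 and 376 FPKM, and Maged1, which also binds p75, at 330 and 154 FPKM with the status FAIL. Grb10, a broadly expressed adaptor, was at 172 and 286 FPKM (log2 ratio 0.73). Grb7 was the gene called higher, at 9.49 and 25.3 FPKM with the status FAIL, and is named after its values were seen.

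In the list of proneurotrophin processing and receptor cleavage, 5 of the 10 genes that passed the filter were called lower and none higher, beside 22.4% and 6.83% of all genes. Cpe, the gene for the carboxypeptidase that trims and sorts neuropeptides and proBDNF, was at 69.1 FPKM in Hb9 cells and 9.87 FPKM in A2 cells (log2 ratio -2.81). Pcsk2, for a prohormone convertase, was at 3.64 and 0.402 FPKM (log2 ratio -3.18). Adam10, a protease that sheds membrane receptors, was at 77.6 and 37.7 FPKM with the status FAIL, and Adam17, which cleaves p75, at 70.9 and 47.7 FPKM. The remaining genes called lower, named after their values were seen, were Plat (log2 ratio -1.66) and Pcsk5 (-1.41, at 1.60 and 0.605 FPKM). Pcsk2 and Pcsk5 passed the filter only through their Hb9 values, and a filter of 5 FPKM left 3 genes of the list called lower.

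Of 17 feedback regulators and response genes of receptor tyrosine kinases that passed the filter, 3 were called higher and 1 lower, beside 6.83% and 22.4% of all genes. The lower gene, named after its value was seen, was Dusp4 (log2 ratio -1.35). Etv5 was at 19.9 FPKM in Hb9 cells and 85.2 FPKM in A2 cells (log2 ratio 2.10). Etv4 was at 21.3 and 59.8 FPKM (log2 ratio 1.49). Both encode ETS factors that fibroblast growth factors induce in other cells, mESCs included, and GDNF is known to induce Etv4 in MN pools. Spry4, for an inhibitor of kinase signaling, was at 3.56 and 18.9 FPKM (log2 ratio 2.40), and Spry2 at 37.3 and 64.3 FPKM (0.78). The median of the list was -0.34, close to that of all genes.

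Markers of the sorted cell type differed between the genotypes together with the receptors. Of 10 MN markers in the table, 9 passed the filter and 7 of these were called lower, with a median log2 ratio of -4.18. The marker counts here and in the next paragraph stand beside 22.4% of all genes called lower and 6.83% called higher. Isl1 was at 108 FPKM in Hb9 cells and 5.95 FPKM in A2 cells, and Foxp1, whose entry is shared with Eif4e3, at 47.1 and 34.9 FPKM. Lhx3 and Chat, chosen after their values were seen, had the lowest ratios of the list. They were at 27.6 and 15.5 FPKM in Hb9 cells and at 0.348 and 0.344 FPKM in A2 cells. Mnx1, at 41.2 and 44.2 FPKM (log2 ratio 0.10), is also in this list and, like Foxp1, was not called lower. Among the markers called lower, Prph had the smallest difference (log2 ratio -1.20). Of the 10 MN markers 5 were below 1 FPKM in A2 cells and 1 in Hb9 cells, and none was at 0. The summed FPKM of the 10 markers was 310 in Hb9 cells and 99.5 in A2 cells.

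Pan-neuronal markers, 9 in the table, were all called lower, with a sum of 1422 FPKM in Hb9 cells and 145 FPKM in A2 cells and a median log2 ratio of -3.88. The neurofilament genes Nefm and Nefl led them, at 359 and 297 FPKM against 15.2 and 17.0 FPKM, and their entries overlap. All 8 markers of pluripotent cells were called higher, with sums of 278 and 1821 FPKM. Of these Pou5f1 was at 98.3 and 775 FPKM and Utf1 at 59.8 and 357 FPKM. Neural progenitor markers (5 of 6 called lower, sums of 364 and 37.2 FPKM, led by Nkx6-1 and Nes), spinal interneuron markers (7 of 7 that passed, 43.8 and 7.33 FPKM, led by Gata3, whose entry is shared with 9230102O04Rik) and astrocyte markers (4 of 4 that passed, 612 and 17.7 FPKM, led by Fabp7 and Slc1a3) were lower as well. Most of the astrocyte sum in Hb9 cells was Fabp7, at 553 and 5.52 FPKM. The astrocyte markers Gfap (0.39 and 0.325 FPKM) and Aqp4 (0.421 and 0.0366 FPKM) were below the filter in both genotypes. Neural crest, sensory and enteric neurons, which also carry Ret, Ngfr and Trk receptors, had 5 of 7 markers called lower, with sums of 129 and 20.0 FPKM. Feeder fibroblast markers had 5 of 7 called lower and 1 higher (63.6 and 32.4 FPKM, led by Col1a2 and Col1a1). Endoderm markers had 2 of 5 called lower (87.5 and 38.4 FPKM, led by Foxa2 and Gata4) and mesoderm markers 1 of 3 (14.8 and 10.5 FPKM, led by Twist1 and Pdgfra), small counts that are not read as a difference from all genes. No marker of any list was at 0 in either genotype. Among the marker genes named here Utf1, Nes, Col1a1, Gata4 and Pdgfra have the status FAIL. The part of these marker differences in the lower receptor levels was not tested.

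**Figure D4:**
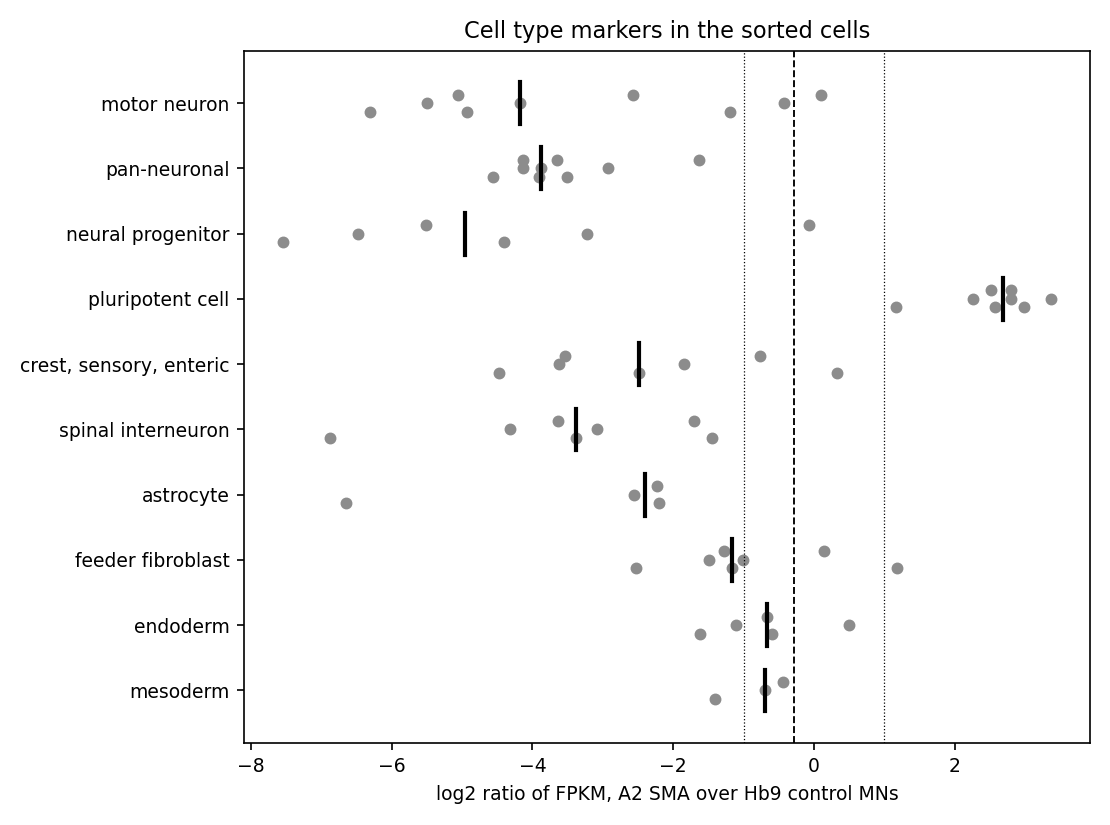
Log2 ratio of FPKM for each marker gene that passed the filter in 10 cell type lists, with bars for list medians, a dashed line for the median of all genes at -0.29 and dotted lines for 2-fold differences. The 8 pluripotent cell markers lie right of the upper 2-fold line and the 9 pan-neuronal markers left of the lower one.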

How the data were processed

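Sorted MNs, 3 samples of each genotype, gave RNA for single-end sequencing. Per the labels and the study's methods, the authors used FastQC 0.10.1, CutAdapt, TopHat 2.04 with NCBI m37 and its Ensembl annotation, Cufflinks and Cuffdiff. The Cufflinks and Cuffdiff versions are not given in the sources used here. The deposited FPKM values are 1 per entry and genotype, and the authors' fold changes, test statistics, p-values and q-values, also in the table, were not used. The status column was read only to mark entries with the status FAIL, for which Cuffdiff could not complete its calculation.

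The column of symbols was split at commas, and the entry with the highest FPKM was taken per symbol. All-gene values count each entry once. Ratios used Python 3.11.15, numpy 2.4.6 and pandas 2.3.3, with figures by matplotlib 3.10.9. The steps were tested on simulated data. Locus starts were raised by 1 to count from 1. Named genes beside the 9 are the 3 most abundant and the 2 with the largest absolute log2 ratio of each pathway list, and the 2 most abundant of each marker list. The genes and lists were chosen with earlier results of these data known. The marker genes Slc18a3, Tubb3 and Sox1 were not analysed here, and Map2 was read under its older symbol Mtap2. Some genes that the naming rule picks are not reported here by name.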

Additional observations from a re-analysis of the deposited data

How the results depend on the processing

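No paired analysis was possible because the table gives 1 pooled value per genotype, and for the same reason no sample could be left out in turn. Of 54 alternative log2 ratios of single genes of the set, 52 moved by less than 1.5-fold and none of those at least 2-fold lower changed sign. The others came from a pseudocount of 1 FPKM, which by construction draws low genes together, with -1.91 for Ntrk3 and -0.62 for Gfra2. With that pseudocount and with a filter of 5 FPKM, 6 genes of the set were at least 2-fold lower, and 6 were at least 4-fold lower. Centring on the median gene, scaling to the upper quartile and scaling to Gusb, Pgk1 and Rpl13a shifted every log2 ratio up by a constant and left 7. For the pathway lists, 31 of 40 counts stayed within 1.5 times. A filter of 5 FPKM, which leaves fewer genes, gave 6 lower neurotrophin receptors, 3 lower processing genes, 0 higher CNTF and LIF family receptors and 0 lower or higher neurotrophin ligands. The lower CNTF and LIF family ligands became 0 with this filter and with centring, which also gave 1 higher GDNF family ligand and 3 higher adaptors. For low genes the number of reads behind each value is unknown.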
